A study of Homo sapiens with 8 samples.

Results

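The AP-1 transcription factor genes FOS, FOSB, FOSL1, FOSL2, JUN, JUNB and JUND and their relatives ATF3 and BATF3 were examined in side population (SP) and non-side population (NSP) cells of J82. These 9 genes were taken by name from the 57820 genes of the count table. J82 is an established human bladder cancer cell line, grown here in DMEM with fetal bovine serum. SP cells were collected by flow cytometry as the fraction dim for Hoechst, a dye that binds DNA and that membrane pumps export, and NSP cells were the other living cells of the same line. RNA-seq was available for 4 SP and 4 NSP libraries, numbered 1 to 4 in each population, with no drug given to either. Both populations were trypsinized, stained with the dye in warm medium and sorted before the RNA was taken, and no library of unsorted cells is part of the comparison.

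AP-1 is a dimer that binds DNA through a basic region followed by a leucine zipper (bZIP). FOS proteins pair with JUN proteins, JUN proteins can also pair with each other, and ATF3 and BATF3 pair with JUN proteins and can repress or activate. FOS, FOSB, JUN, JUNB and ATF3 are immediate early genes, whose RNA rises briefly after serum, growth factors, stress or the enzymatic release of cells from a dish. FOSL1 and FOSL2 are induced later and last longer, and JUND is expressed more steadily. In epithelial cancers AP-1 is known for its part in proliferation, invasion and inflammation.

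Counts assigned to genes were few, the SP libraries holding 1431823 to 1697218 counts and the NSP libraries 1489033 to 2073526. The paper states far more raw reads per sample, and why the counts are fewer was not tested. Levels are given as CPM, the counts of a gene per 1000000 counts of its library after TMM scaling, and 8 of the 9 members had enough counts to be tested, among 9309 tested genes. Of 12 urothelial and epithelial markers 5 were tested, led by keratin 8 (KRT8) with a mean ± SD over 4 libraries of 3298 ± 485 CPM in SP and 4022 ± 737 CPM in NSP cells. Exons of KRT8 overlap those of KRT18 on the other strand, and the part of KRT18 in the KRT8 counts was not tested. TP63 had 0 counts, and KRT5 and UPK1A 1 count each over the 8 libraries. EPCAM had 3, CDH1 24, GATA3 34 and PPARG 57 counts over the 8 libraries, too few for the test. KRT7 fell in SP cells (edgeR adjusted p = 0.00342), as did FN1 among 4 mesenchymal markers (edgeR adjusted p = 8.63e-04). Both are structural or matrix genes. Of 7 blood and endothelial markers, PTPRC, CD3E and HBB were at 0 in every library, VWF had 1 count over the 8 libraries, PECAM1 was not matched, and CD14 had 67.0 ± 22.7 CPM in SP and 34.2 ± 17.2 CPM in NSP cells. The CD14 difference (log2 fold change 0.96, standard error 0.33) had an edgeR adjusted p of 0.135 and was called with the replicate number as a block (adjusted p = 2.77e-06), and the summed level of the list was 38.4 to 86.1 CPM in SP and 12.8 to 53.2 CPM in NSP libraries. Its part in the results below was not tested. How strand was handled in the counting is not given in the sources used here. GAPDH had 13292 counts over the 8 libraries and the lncRNA ENSG00000269968, which shares 422 bp of exon with it on the other strand, had 464412. Exons that face an exon on the opposite strand were annotated in 57.4% of the tested genes and in 1 of the 9 members, JUNB. This does not show that the other members are free of a strand effect. Whether the members' counts carry the same imbalance was not tested, and levels of different genes are compared with this limit.

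Promoters of 7 of the 9 genes were found in the RefSeq promoter set (build GRCh38.p14, from 250 bases before to 50 bases after each transcription start). ATF3 had 2 promoters there, which gives 8 in all. FOSL1 and BATF3 were not matched. The cAMP response element (CRE), TGACGTCA, is bound by CREB and ATF dimers, and the AP-1 site, TGANTCA, is bound by FOS and JUN dimers. Both strands were searched. The full CRE was found in 1 of the 8 promoters, JUND, and in 1.85% of all 35116 promoters. The AP-1 site was found in 1 of the 8, FOSL2, starting at base 5 after the start, and in 7.71% of all promoters. The CArG box, the site of serum response factor, was in 0 of the 8 and in 1.29% of all promoters in this window. The core TGACG, which the full CRE contains, was in 6 of the 8 and in 24.6% of all promoters, and TGACNTCA, which includes the CRE and a variant of it, was in 3 of the 8 and in 7.72%. The last pair of patterns was chosen after the sequences were seen. The stretches below hold these matches in capitals, 5′ to 3′ on the strand of the gene, and are shown because they are the CRE-related letters of the members that results are given for.

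FOS, chr14:75278753-75278779, plus strand, TGACG from base -64: ggttgagcccgTGACGtttacactcat
FOSB, chr19:45467925-45467951, plus strand, TGACG from base -60: caaggggcgggTGACGtaagcaggggg
FOSL2, chr2:28392781-28392807, plus strand, TGACG from base -66: gagtctggggtTGACGtgagtgaatcc
JUNB, chr19:12791338-12791364, plus strand, TGACG from base -137: cttcctgacagTGACGcgagccgcctc
JUN, chr1:58784096-58784125, minus strand, the CRE variant from base -67: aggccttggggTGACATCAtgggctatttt
JUND, chr19:18281804-18281833, minus strand, the full CRE from base -200: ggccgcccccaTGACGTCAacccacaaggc
ATF3, first promoter, chr1:212565273-212565302, plus strand, the CRE variant from base -123: cacctatgataTGACATCAtatggccactc

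One match is shown per promoter. TGACG was also found in JUN from base -123 and, on the other strand, in FOSL2 from base -201 and in JUND from bases -197 (within its CRE) and -86. The second ATF3 promoter held none of the patterns searched. A match of letters is a description and does not show that a factor binds there.

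ATF3, a stress-induced factor, had the largest difference of the members tested. The gene (ENSG00000162772.12; chromosome 1 of GRCh37, 212738676 to 212794119, plus strand) has 3998 bp of annotated exon. SP libraries 1 to 4 had 12.2, 14.7, 7.04 and 19.9 CPM of ATF3, and NSP libraries 1 to 4 had 3.72, 3.95, 7.65 and 4.15 CPM. SP was thus higher in 3 of the 4 numbered pairs, and the groups overlapped through number 3, where the SP library was the lowest of its group and the NSP library the highest of its own. Means ± SD over 4 libraries were 13.5 ± 5.34 CPM in SP and 4.87 ± 1.86 CPM in NSP cells, which rest on 13 to 27 counts of a library in SP and on 6 to 12 in NSP. ATF3 was higher in SP by a log2 fold change of 1.45 (standard error 0.37, 95% interval 0.66 to 2.24), or 2.73-fold, with an adjusted p of 0.0423 in the edgeR quasi-likelihood fit, adjusted over all tested genes by Benjamini-Hochberg. The filter on low counts needed 6.36 CPM or more in 4 libraries, which ATF3 reached in 4 SP and 1 NSP library, so it entered the test through the group where it was high. An exact permutation test on log2(CPM + 1), two-sided, gave p = 0.0571, where 0.0286 is the smallest that 4 against 4 libraries allow. The call is close to the threshold: it was lost without any single library other than SP replicate 3 and NSP replicate 3, with adjusted p-values up to 0.135, and DESeq2 gave the ATF3 log2 fold change an adjusted p of 0.0554. It ran from 1.20 to 1.73 in these fits. Leaving out genes with opposite-strand exons also lost it (1.39, edgeR adjusted p = 0.0708). With the replicate number as a block the ATF3 log2 fold change was 1.42 (standard error 0.34, edgeR adjusted p = 0.00129). The gene entered that fit through the same filter.

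**Figure D1:**
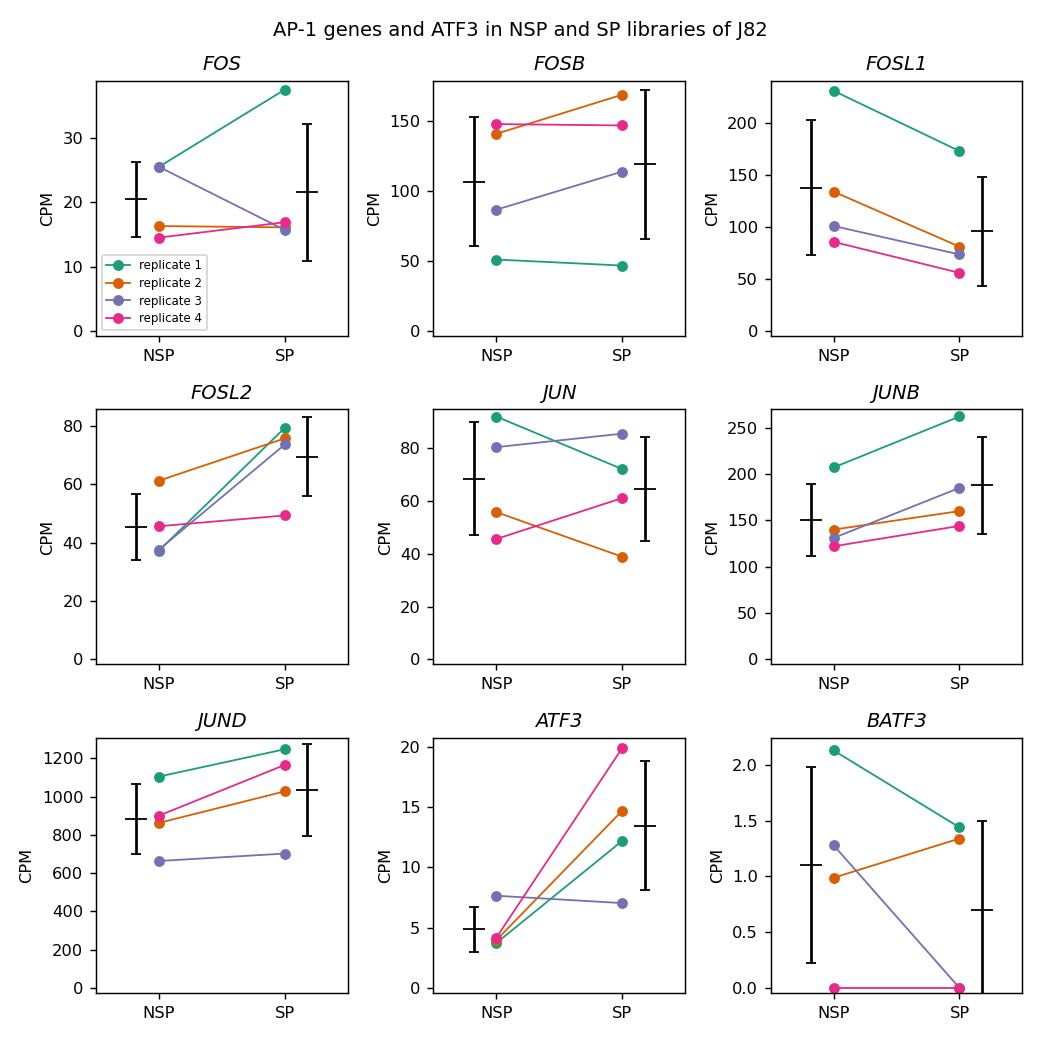
Level of each of the 9 genes in CPM (vertical axes, linear from 0) in NSP and SP libraries. Points are libraries, lines join libraries of the same replicate number, and black bars are the mean ± SD of 4 libraries. ATF3 is higher in SP in numbers 1, 2 and 4, FOSL2 is higher in SP and FOSL1 lower in all 4 numbers, and the libraries of number 1 have the lowest FOSB and the highest FOSL1.

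FOS family genes did not move together. FOSL2, which encodes FRA-2, was higher in the SP library and FOSL1, which encodes FRA-1, was lower in the SP library of every numbered pair. Neither was called in the fit without a replicate term, and both were called when the replicate number was a term in the model. Same-numbered libraries deviated from their group means together over all tested genes, with correlations of 0.38, 0.203, 0.322 and 0.321, and the replicate numbers are therefore treated as pairs.

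FOSL2 (ENSG00000075426.7; chromosome 2 of GRCh37, 28615315 to 28640184, plus strand) had 79.3, 75.7, 73.6 and 49.3 CPM in SP libraries 1 to 4 and 37.2, 61.2, 37.6 and 45.6 CPM in NSP libraries 1 to 4. The groups overlapped only through number 4 of SP, which lay below number 2 of NSP. FOSL2 had a log2 fold change of 0.61 (standard error 0.21, 95% interval 0.17 to 1.05; edgeR adjusted p = 0.127, exact permutation p = 0.0571). With the replicate block it was 0.62 (standard error 0.17, edgeR adjusted p = 0.00419), or 1.54-fold. Within pairs the SP to NSP ratio ran from 1.08 in number 4 to 2.13 in number 1.

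FOSL1 (ENSG00000175592.4; chromosome 11, 65659520 to 65668044, minus strand) had 173, 81.1, 73.6 and 55.9 CPM in SP libraries 1 to 4 and 231, 134, 101 and 85.7 CPM in NSP libraries 1 to 4. The libraries of number 1 were the highest in each group, and the spread between numbers was wider than the difference between populations. The log2 fold change was -0.53 (standard error 0.33, 95% interval -1.23 to 0.16; edgeR adjusted p = 0.454). With the replicate block it was -0.55 (standard error 0.14, 95% interval -0.83 to -0.26; edgeR adjusted p = 0.00354), a 1.46-fold lower level in SP cells. The SP to NSP ratio within pairs lay between 0.604 and 0.747. In the fit without a replicate term the difference was -0.98 without SP replicate 1 and -0.18 without NSP replicate 1, so its size there depended on the number 1 libraries.

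FOS, the founding member (ENSG00000170345.5; chromosome 14, 75745529 to 75748933, plus strand), had 37.5, 16.1, 15.7 and 16.9 CPM in SP libraries 1 to 4 and 25.5, 16.3, 25.5 and 14.5 CPM in NSP libraries 1 to 4. SP replicate 1 stood above all others, and the remaining SP libraries lay within the NSP range. FOS had a log2 fold change of 0.06 with a 95% interval of -0.60 to 0.71 (edgeR adjusted p = 0.952), so a difference within this interval cannot be told from none with these counts. It was -0.34 without SP replicate 1.

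FOSB (ENSG00000125740.9; chromosome 19, 45971253 to 45978437, plus strand) had 46.8, 169, 114 and 147 CPM in SP libraries 1 to 4 and 51.1, 141, 86.7 and 148 CPM in NSP libraries 1 to 4. Number 1 was the lowest in both groups, and the spread between numbers was wider than the difference between the populations. FOSB had a log2 fold change of 0.16 (95% interval -0.55 to 0.88, edgeR adjusted p = 0.86), and with the replicate block it was 0.15 (95% interval -0.14 to 0.44, adjusted p = 0.582). The span of ERCC1, a DNA repair gene on the other strand with 923 to 1599 counts per library, covers FOSB without an exon across its exons. The part of ERCC1 in the FOSB counts was not tested.

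Among the JUN family genes none was called, at an edgeR adjusted p of 0.482 to 0.909. JUND and JUNB were higher in the SP library of all 4 pairs, and JUN in 2 of 4. SP was higher in all 4 pairs for 14.9% of the tested genes and lower in all 4 for 15.1%, so 3 of the 8 tested members higher throughout (FOSL2, JUNB and JUND) and 1 lower throughout (FOSL1) are to be read against those shares.

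JUND (ENSG00000130522.4; chromosome 19, 18390504 to 18392432, minus strand), the JUN protein of resting cells, had 1247, 1027, 702 and 1165 CPM in SP libraries 1 to 4 and 1104, 862, 663 and 900 CPM in NSP libraries 1 to 4. Number 3 was the lowest in both groups. With 12305 counts over the 8 libraries it had more counts than 98.5% of the tested genes and the narrowest interval of the members in the fit without a replicate term: the log2 fold change was 0.23, from -0.18 to 0.64. With the replicate block it was 0.22, from -0.03 to 0.47 (edgeR adjusted p = 0.281).

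JUNB (ENSG00000171223.4; chromosome 19, 12902300 to 12904129, plus strand), which can oppose JUN in growth control, had 262, 160, 185 and 144 CPM in SP libraries 1 to 4 and 207, 140, 131 and 122 CPM in NSP libraries 1 to 4. Each SP library was 1.15 to 1.41 times its NSP partner, but the groups overlapped because number 1 was high in both. JUNB had a log2 fold change of 0.32 (95% interval -0.12 to 0.76), and with the replicate block 0.32 (95% interval 0.05 to 0.59), where the edgeR adjusted p was 0.108. HOOK2 shares 259 bp of exon with JUNB on the other strand. HOOK2 was also highest in number 1, at 882 CPM in SP and 642 CPM in NSP, and its log2 fold change was 0.20 (edgeR adjusted p = 0.73). The part of HOOK2 in the JUNB counts was not tested.

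JUN (ENSG00000177606.5; chromosome 1, 59242517 to 59249720, minus strand), a growth-promoting partner of FOS proteins, had 72.1, 38.9, 85.5 and 61.1 CPM in SP libraries 1 to 4 and 92.0, 55.8, 80.4 and 45.6 CPM in NSP libraries 1 to 4. SP was higher in numbers 3 and 4 and lower in numbers 1 and 2. JUN had a log2 fold change of -0.09 (95% interval -0.61 to 0.44, edgeR adjusted p = 0.909).

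BATF3 (ENSG00000123685.4; chromosome 1, 212859759 to 212873182, minus strand), best known from dendritic cells, had 12 counts in all and was not tested. SP libraries 1 to 4 had 2, 2, 0 and 0 counts, and NSP libraries 1 to 4 had 4, 2, 2 and 0. A count of 0 allows a level of up to 1.62 CPM in SP library 3, 2.21 CPM in SP library 4 and 2.07 CPM in NSP library 4, counting error only, so no difference was detectable with these counts.

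Over the 8 tested members, 1 was called higher in SP cells (ATF3) and 0 were called lower, where a call needs an edgeR adjusted p below 0.05 together with a change of more than 1.3-fold. Over all tested genes 1.63% were called higher and 2.03% lower. Before adjustment, 2 members had an edgeR p below 0.05 as higher (ATF3 and FOSL2) and 0 as lower. The share of all tested genes with such a p was not computed, so these counts have no background. DESeq2 called 0 members in either direction. With the replicate block, 2 members were called higher (ATF3 and FOSL2) and 1 lower (FOSL1), where 5.89% of all tested genes were called higher and 7.00% lower. The median log2 fold change was 0.20 over the 8 members and 0.01 over all tested genes. It is a description, as the members were chosen with earlier results of these data known. SP libraries did not stand wholly above or below the NSP libraries for any of the 8, where 4.78% of tested genes had every SP library above and 4.97% every SP library below.

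**Figure D2:**
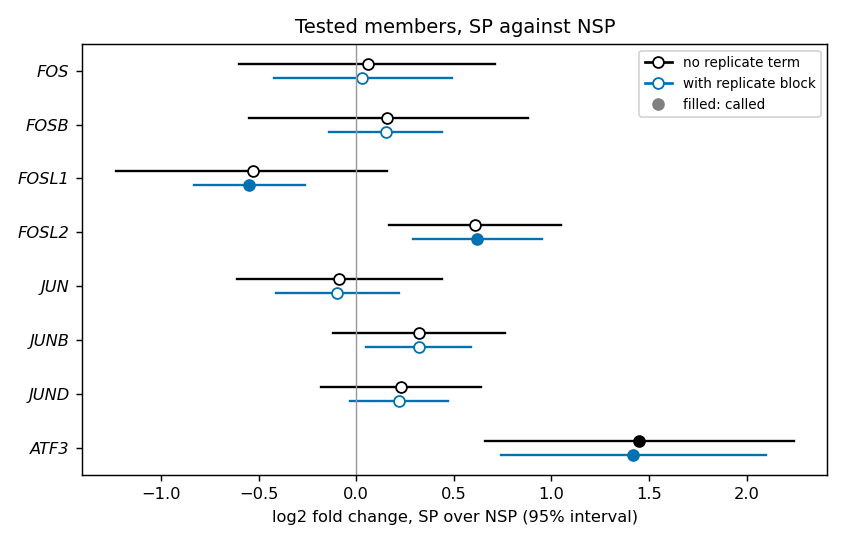
Log2 fold change of SP over NSP (horizontal axis) with its 95% interval for the 8 tested members, from edgeR without a replicate term (black) and with the replicate number as a block (blue). Filled points are called. The block left the estimates within 0.03 of the others and narrowed the intervals, most for FOSB and FOSL1.

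**Figure D3:**
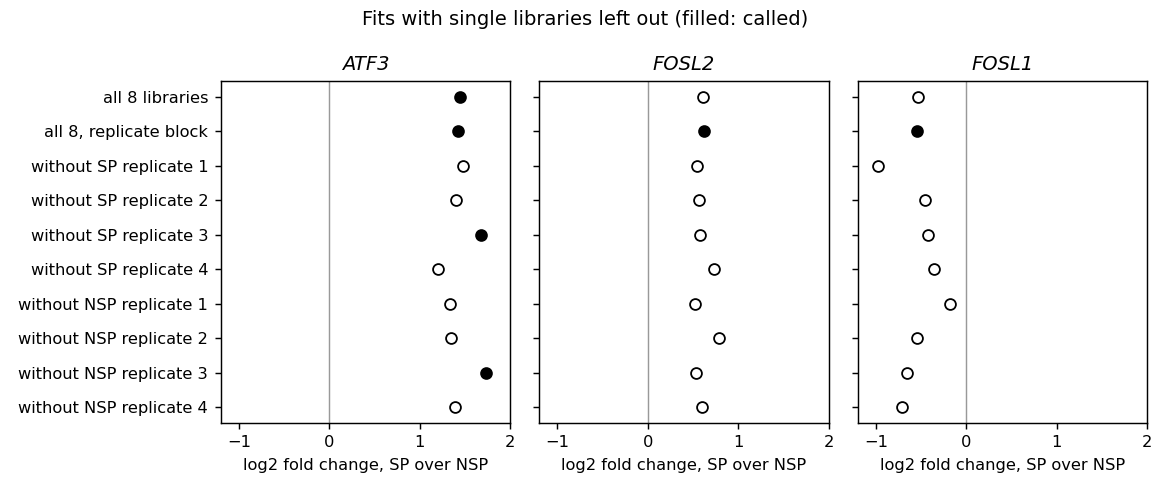
Log2 fold change of ATF3, FOSL2 and FOSL1 (horizontal axes) with all 8 libraries, with the replicate block, and with each library left out in turn. Filled points are called. ATF3 stays between 1.20 and 1.73 and FOSL2 between 0.52 and 0.79, while FOSL1 runs from -0.98 to -0.18 with the choice of the library left out.

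Levels per kb of exon set the members in an order that ran over a wide range. The length used covers all annotated exons of a gene, and the order depends on it. In SP cells JUND was first with 537 ± 124 CPM per kb, then JUNB (103 ± 28.4), FOSL1 (50.8 ± 27.8), FOSB (21.5 ± 9.59), JUN (17.8 ± 5.45), FOSL2 (9.7 ± 1.91), FOS (6.76 ± 3.34), ATF3 (3.37 ± 1.34) and BATF3 (0.271 ± 0.313), each as mean CPM per kb ± SD of 4 libraries. Only the steps from JUND to JUNB and from ATF3 to BATF3 were free of overlap between the SP libraries of neighbours. In NSP cells JUND (457 ± 93.7 CPM per kb), JUNB (81.9 ± 21.3), FOSL1 (73.2 ± 34.7), FOSB (19.2 ± 8.29) and JUN (18.9 ± 5.91) came in the same order, and FOS (6.42 ± 1.85) and FOSL2 (6.34 ± 1.57) lay side by side, before ATF3 (1.22 ± 0.466) and BATF3 (0.427 ± 0.342).

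Within the FOS family, FOSL1 made up 74.6, 48.3, 52.2 and 43.4% of the summed level per kb in SP libraries 1 to 4 and 84.5, 64.6, 64.9 and 54.7% in NSP libraries 1 to 4. Its share was lower in SP in every pair, and the groups overlapped. FOSL2 made up 9.0, 11.9, 13.7 and 10.1% in SP libraries and 3.58, 7.76, 6.39 and 7.68% in NSP libraries, so the lowest SP share lay above the highest NSP share. The number of FOSL2 CPM per FOSL1 CPM was 0.458, 0.934, 1.0 and 0.882 in SP libraries 1 to 4 and 0.161, 0.456, 0.373 and 0.532 in NSP libraries 1 to 4, higher in SP in each pair, with SP library 1 below NSP library 4. The FOSL2 share also rises where FOSL1, the largest part of the sum, is lower. FOSL2 itself overlapped between groups, at 49.3 to 79.3 CPM in SP and 37.2 to 61.2 CPM in NSP libraries. These shares and ratios were chosen after the values of the genes were seen and were not tested. No background for them was computed. The shares also depend on the annotated exon length, 5553 bp for FOSB and 1887 bp for FOSL1. Before division by length, FOSB had more CPM than FOSL1 in SP libraries 2 to 4 and in NSP libraries 2 and 4. It had fewer in the others. JUND held 74.5 to 86.3% of the JUN family's level per kb in SP and 78.6 to 85.5% in NSP libraries.

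**Figure D4:**
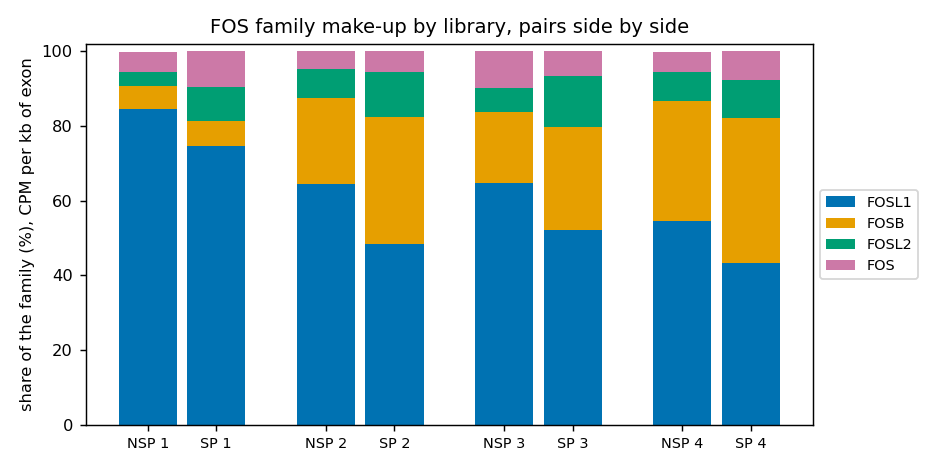
Share of each FOS family gene in the family's summed level (vertical axis, percent of CPM per kb of exon) in each library, with the NSP and SP library of a number side by side. By this measure, which depends on annotated exon length, FOSL1 holds the largest share in every library, 43.4 to 84.5%. Its share is smaller in the SP library of each pair, while the FOSL2 share is larger in SP.

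Other bZIP factors that can pair with AP-1 or ATF3, among them the C/EBP, small MAF, CREB and NFE2 families, had 17 of 28 listed genes tested. CEBPD, an inflammatory and acute-phase factor, rose in SP cells, and NFE2L3, a relative of NRF2, fell, and 15 were not called, so 1 of 17 was called in each direction, where 1.63% of all tested genes were called higher and 2.03% lower. CEBPD had 168 to 345 CPM in SP and 77.7 to 130 CPM in NSP libraries, with no overlap, as for 4.78% of all tested genes in that direction (log2 fold change 1.08, standard error 0.23, edgeR adjusted p = 0.0142). NFE2L3 had 3.35 to 5.89 CPM in SP and 9.57 to 14.3 CPM in NSP libraries (log2 fold change -1.45, standard error 0.32, edgeR adjusted p = 0.02), and it met the filter of 6.36 CPM in 4 NSP and 0 SP libraries, with 5 to 8 counts per SP library, so it was tested only through the group where it was high. Its exons overlap those of HNRNPA2B1 on the other strand. Without NSP replicate 2 neither the CEBPD log2 fold change (edgeR adjusted p = 0.0613) nor the NFE2L3 log2 fold change (edgeR adjusted p = 0.0823) was called, and the NFE2L3 call was also lost without SP replicate 2, SP replicate 3 or NSP replicate 1. In the fit with the replicate block CEBPB, MAFG and MAFK were called higher as well, at log2 fold changes of 0.76, 0.61 and 0.50, which makes 4 of 17 higher against 5.89% of all tested genes and 1 of 17 lower against 7.00%. DDIT3, the stress factor CHOP, had 177 ± 60.9 CPM in SP and 190 ± 57.9 CPM in NSP cells and was not called (edgeR adjusted p = 0.887). JDP2, which dimerizes with JUN proteins, was not called either (log2 fold change 0.24, edgeR adjusted p = 0.794). The list's median log2 fold change was -0.01.

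Of 34 genes that carry signals to AP-1 (RAS and RAF genes, MAP kinases and the serum response factors), 23 were tested and 0 were called by edgeR. Unadjusted p-values were below 0.05 for 2 higher and 1 lower, with no share of all tested genes computed for them. DESeq2 also called 0. The median was 0.04. MAPK3, an ERK kinase, had a log2 fold change of -0.04, and SRF and ELK1, which drive FOS transcription, had -0.14 each. MAP2K2, with the most counts of the list, had 0.28 (edgeR adjusted p = 0.33). Its SP libraries (224 to 243 CPM) lay above its NSP libraries (180 to 223 CPM), as for 4.78% of all tested genes. HRAS, MAPKAPK2 and ARAF, next in counts, had 0.25, -0.27 and 0.29 and were not called. Under the block MAPK9, a JNK kinase that phosphorylates JUN, was called lower (log2 fold change -0.64, edgeR adjusted p = 0.0387) and MRTFA, a coactivator of SRF, higher (0.68, adjusted p = 0.0181). That is 1 of 23 in each direction, where the block called 7.00% of all tested genes lower and 5.89% higher, so these counts are not above the background. MAPK9 had 16.8 to 18.4 CPM in SP and 24.7 to 31.8 CPM in NSP libraries, without overlap, as for 4.97% of all tested genes in that direction.

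Of 22 feedback and turnover genes (phosphatases of MAP kinases, Sprouty and SPRED genes, and factors that degrade AP-1 RNA or protein), 11 were tested and 0 were called by edgeR. Unadjusted p-values were below 0.05 for 2 higher and 0 lower, again with no share of all tested genes computed. DESeq2 called 0, and the median was 0.20. Under the block DUSP1, a phosphatase that switches off MAP kinases, was called higher (log2 fold change 0.74, edgeR adjusted p = 0.00964), as was ZFP36L2, an RNA decay factor (0.67, adjusted p = 0.0307), or 2 of 11 against 5.89% of all tested genes. DUSP1 had 34.1 ± 11.5 CPM in SP and 20.6 ± 10.1 CPM in NSP cells and was higher in SP in 4 of 4 pairs, and the groups overlapped. ZFP36, which degrades AU-rich RNAs such as that of FOS, had 12.1 ± 3.76 and 8.61 ± 2.87 CPM and was not called.

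Genes known as AP-1 targets had 14 of 28 listed members tested. CCND1 (cyclin D1), CD44 (the hyaluronan receptor) and HMGA1 (a chromatin protein) fell in SP cells, IL6 rose, and 10 were not called. Over all tested genes 2.03% were called lower and 1.63% higher. The log2 fold change was negative for 10 of the 14, with a median of -0.51 against 0.01 over all tested genes. This list, like the other lists, was chosen with earlier results of these data known. Its counts and median are therefore a description and not a test of AP-1 targets. CCND1 had 117 ± 33.8 CPM in SP and 292 ± 35.1 CPM in NSP cells (log2 fold change -1.32, standard error 0.19, edgeR adjusted p = 0.00155). CD44 had 44.4 ± 14.0 and 111 ± 22.7 CPM (log2 fold change -1.32, standard error 0.22, edgeR adjusted p = 0.00376), and HMGA1 168 ± 31.8 and 376 ± 177 CPM (log2 fold change -1.17, standard error 0.26, edgeR adjusted p = 0.0185). IL6, an inflammatory cytokine, had 36.7 ± 19.7 CPM in SP and 11.3 ± 3.07 CPM in NSP cells (log2 fold change 1.70, standard error 0.34, edgeR adjusted p = 0.012). These 4 genes, picked because they were called, had no overlap between groups, as had 4.97% of all tested genes with SP below and 4.78% with SP above. The HMGA1 log2 fold change was no longer called without SP replicate 2 or NSP replicate 2 (edgeR adjusted p = 0.0519 and 0.0522). Under the block 8 targets were called lower, adding PLAU and PLAUR (urokinase and its receptor), TGFB1, VIM and AXL, and 2 were called higher, IL6 and the chemokine CXCL8 (log2 fold change 1.38, edgeR adjusted p = 0.00247), where the block called 7.00% of all tested genes lower and 5.89% higher. CXCL8 met the filter in 4 SP and 0 NSP libraries. Exons of CCND1, CD44 and IL6 overlap exons on the other strand, those of HMGA1 do not. The collagenase gene MMP1 had 33 counts in all and was not tested, and MMP9 and MMP10 had 0 counts.

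Genes that are commonly induced when cells are dissociated and sorted, apart from the AP-1 genes themselves, had 27 of 34 listed members tested. MCL1 (a survival protein), NFKBIA (the inhibitor of NF-kB) and CEBPD rose in SP cells, 0 were called lower, and 24 were not called, where 1.63% of all tested genes were called higher and 2.03% lower. The median log2 fold change was 0.40, and 19 of the 27 were positive. Because the list was chosen with earlier results of these data known, these values are a description and not a test. MCL1 had 126 ± 13.9 CPM in SP and 61.2 ± 9.90 CPM in NSP cells (log2 fold change 1.04, standard error 0.17, edgeR adjusted p = 0.00298), and NFKBIA 157 ± 34.6 and 75.4 ± 14.0 CPM (log2 fold change 1.06, standard error 0.19, edgeR adjusted p = 0.00584). The block gave 9 of 27 that were called higher, adding IER3, KLF6, SGK1, PPP1R15A, DUSP1 and CCN1, and 0 lower, where it called 5.89% of all tested genes higher and 7.00% lower. SGK1 met the filter in 4 SP and 1 NSP library. The early genes EGR1 and IER2 were not called, at log2 fold changes of 0.27 and 0.12 (edgeR adjusted p = 0.765 and 0.808), and NR4A1 had -0.54 (adjusted p = 0.403). The chaperones HSPA1B, HSP90AA1, HSPA8 and DNAJB1 had log2 fold changes of -0.29 to 0.13 and were not called. The summed level of the 34 genes was 2105 to 2598 CPM in SP and 1615 to 1959 CPM in NSP libraries. Every SP library thus had a higher sum than every NSP library. Sums also stood apart, in the other direction, for the AP-1 targets (1700 to 2179 CPM in SP, 2659 to 3651 in NSP libraries). The same held for the mesenchymal markers (283 to 450 and 501 to 873 CPM), and the sums of the other lists overlapped. No background for such sums was computed. VIM, in both of the last lists, had 315 ± 78.7 CPM in SP and 534 ± 168 CPM in NSP cells. These separations are therefore not independent, and single genes weigh heavily in them. TGFB1 among the targets had 801 ± 38.0 and 1146 ± 158 CPM. CEBPD and DUSP1 are each also in another list. The part of handling in the differences of ATF3 and the other members was not tested. In sorted bulk samples, more cells with a transcript and more transcript per cell cannot be told apart.

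**Figure D5:**
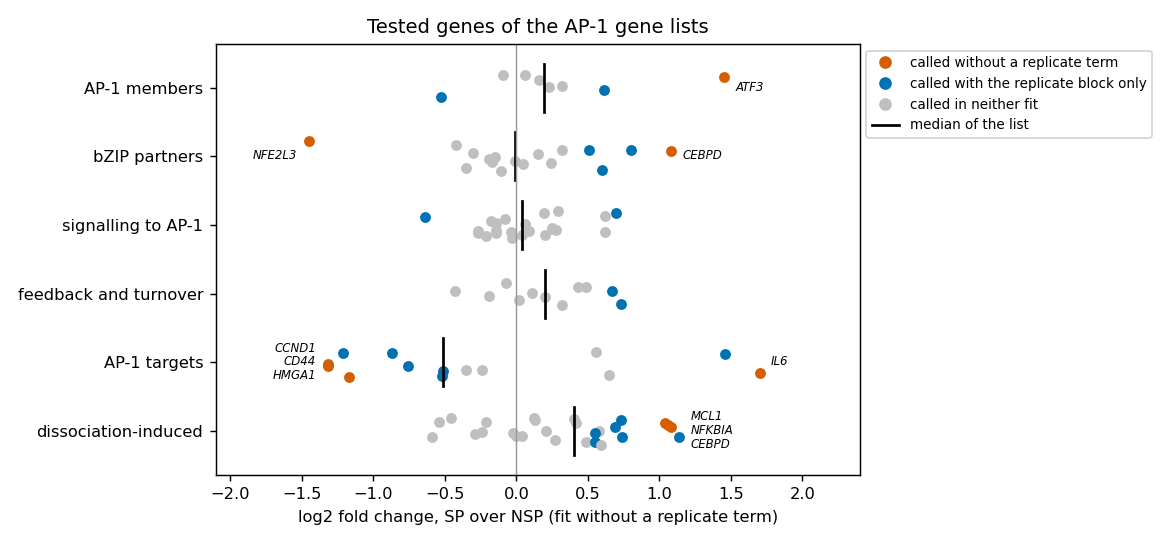
Log2 fold change of SP over NSP (horizontal axis) for the tested genes of the AP-1 set and of 5 related lists, 1 point per gene, from edgeR without a replicate term. Orange points (named) are called in that fit, blue points with the replicate block only, and black bars are medians. The medians are 0.20 for the members, -0.01, 0.04 and 0.20 for partners, signalling and feedback genes, -0.51 for targets and 0.40 for dissociation-induced genes. Members and lists were chosen with earlier results of these data known.

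The genes whose pattern over the 8 libraries was most like the mean standardised level of the 8 tested members were the lncRNA ENSG00000268050, ZNF775, IER5L-AS1, BANP and VEGFB, with Pearson correlations of 0.97, 0.961, 0.958, 0.958 and 0.953 over 8 libraries, the best of 9301 genes. None of the 5 was called between SP and NSP cells (edgeR adjusted p = 0.206 to 0.624). For deviations from the group means the closest genes included ENSG00000257607, HOOK2, PYURF and ENSG00000268050, with correlations of 0.99, 0.968, 0.967 and 0.963. HOOK2 shares exon bases with JUNB, which is part of this mean. The mean pattern was highest in SP replicate 1 (0.84) and lowest in NSP replicate 4 (-0.58). It is not a pattern that all members share. FOSB levels ran against those of FOS, FOSL1, JUNB and JUN (correlations of -0.917, -0.8, -0.767 and -0.728). FOS ran with FOSL1 (0.681) and JUNB (0.692). The libraries of number 1 had the lowest FOSB and the highest FOSL1 and JUNB in both groups. Correlations without them were not computed, and the 8 libraries, treated as pairs, are not independent points.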

How the data were processed

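RNA-seq libraries of J82 SP and NSP cells (4 each) were analysed. Reads were single-ended, of 50 bases. The authors mapped them to hg19 (STAR), assigned them to genes of gencode version 19 (featureCounts; tool versions and strand setting not given in the sources used here) and deposited raw counts. Symbols, exons and GRCh37 positions were joined by gene identifier from GENCODE release 44 lifted to GRCh37 (96.1% of genes matched); DUSP14 and PECAM1 were not matched.

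Counts were tested over all genes with edgeR 4.0.16 in R 4.3.3 (TMM; filterByExpr, minimum count 10, minimum total 15; glmQLFit, glmQLFTest), without a covariate. Calls required more than a 1.3-fold change and an adjusted p (Benjamini-Hochberg) below 0.05. The standard error is the log2 fold change divided by the square root of F. CPM used TMM-normalized totals of tested genes. Exact permutation tests used log2(CPM + 1) in scipy 1.17.1. The fits were tested on simulated counts with 200 genes changed. In these, edgeR recovered 53% of 2-fold and 98% of 4-fold changes, with 13 false among 164 calls. With the block it recovered 52% and 98% (12 false of 162), and DESeq2 53% and 94% (12 false of 159). A gene that was not called may thus still differ by 2-fold. The simulated counts held no replicate effect, so they do not check the block where such an effect is present.

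Same-numbered libraries correlated in their deviations in all 4 pairs (above 0.1), so a fit with the replicate block was set beside each result whose call it changed. Libraries of a group differed beyond sampling noise (chi-square per degree of freedom 4.87 to 11). Nothing in the labels says that they are separate cultures or sorts. Without the block, p-values measure the spread between these libraries, in part pooled over genes. With the block, the spread between numbers is taken out and 3 residual degrees of freedom become 128 by pooling. Blocked p-values thus rest largely on a spread pooled over genes. Alternatives were DESeq2 1.42.0, its size factors, upper-quartile scaling, limma 3.58.1 voom, other count filters, a test against a fold of 1.3, leaving out mitochondrial or opposite-strand genes, and leaving out each library.

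A few genes of the lists are not reported here. The members and lists were chosen with earlier results of these data known. Named list genes are those called without or with the block, up to 12 per list, and up to 4 others with the most counts; EGR1, IER2, NR4A1, MMP1, MMP9, MMP10, MAPK3, SRF, ELK1, JDP2, ERCC1 and some markers were named after their values were seen.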

Additional observations from a re-analysis of the deposited data

Results flagged for a closer look

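Among 126 groups of 4 libraries (63 named genes in SP and NSP cells), 10 held a library set apart from the rest. Chance alone marks about 1 in 20 groups, or 6 here. The gap to the nearest library as a share of the group's range is given for each.

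Of the members, FOS in SP cells had a gap of 0.944, with SP replicate 1 at 37.5 CPM against 15.7 to 16.9 CPM in the others. ATF3 in NSP cells had a gap of 0.892, with NSP replicate 3 at 7.65 CPM against 3.72 to 4.15 CPM.

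Among the partners, MAFF in SP cells (0.922, SP replicate 1 at 65.6 CPM) and MAFG in NSP cells (0.863, NSP replicate 3 at 23.0 CPM) were marked, and DDIT3 in SP cells (0.894, SP replicate 3 at 86.1 CPM against 202 to 216 CPM). Among the targets and dissociation-induced genes, they were VEGFA in SP cells (0.886, SP replicate 1 at 143 CPM against 33.0 to 45.6 CPM), CXCL8 in SP cells (0.906, SP replicate 4 at 29.4 CPM) and KLF6 in NSP cells (0.836, NSP replicate 1 at 32.4 CPM). The signalling gene MAP2K2 in SP cells had a gap of 0.865 (SP replicate 4 at 224 CPM) and the marker KRT19 in NSP cells 0.835 (NSP replicate 3 at 53.6 CPM). No explanation was tested.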

How the results depend on the processing

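The count of members called higher, which is ATF3 alone, changed in 11 of its 18 alternatives. The cause of these changes and of those below was not tested, except that a filter, a left-out gene or a left-out library changes by construction what is tested. The direction was kept under every alternative run for ATF3, FOSL1, FOSL2, JUNB and JUND, and it turned in some, always without a call, for FOS, FOSB and JUN.

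With the replicate block the members called were 2 higher and 1 lower, partners 4 higher, signalling genes 1 higher and 1 lower, feedback genes 2 higher, targets 2 higher and 8 lower, and dissociation-induced genes 9 higher. The blocked fit has 3 residual degrees of freedom and 128 after pooling over genes, against 6 and 15.9 without the block. ATF3 was the member called higher, and 0 members were with DESeq2, with the test against a fold of 1.3, without opposite-strand genes and with at least 10 counts in every library, where ATF3 was not tested. The test against 1.3 also left 0 partners higher and 0 lower. Without opposite-strand genes 0 partners were lower and 0 targets higher, and with at least 10 counts in every library 0 partners were lower. Without a filter there were 3 partners higher, 3 targets higher and 9 lower, and 5 dissociation-induced genes higher. DESeq2 called 6 targets lower. Shares of all tested genes called were computed only for the fits without and with the block. The counts under the other alternatives, and with single libraries left out, have no such background. The tested set differed too: 28 partners were tested without a filter and 23 by DESeq2, against 17 in the main fit.

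With single libraries left out, members called ranged from 0 to 1 higher and 0 to 0 lower, partners from 0 to 3 higher and 0 to 1 lower, signalling genes from 0 to 1 lower, feedback genes from 0 to 1 higher, targets from 2 to 7 lower (2 without NSP replicate 2, 7 without NSP replicate 4), and dissociation-induced genes from 2 to 4 higher. Low counts limit ATF3, with 6 counts in its lowest library, and BATF3 most.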
